A study of Mus musculus with 4 samples.

Results

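Pi16/Dpp4 fibroblasts, the stromal cells of the outer vessel coat and fascia known by Pi16 and Dpp4, were picked from a single-cell RNA dataset of collecting lymphatic vessels taken from mice with their nearby tissue. A barcode was taken as a fibroblast when it held at least 1 unique molecular identifier (UMI, a counted mRNA molecule) of Pdgfra and at least 5 of Dcn, and none of Ptprc, Pecam1 or Upk3b. The UMIs of Pi16 and Dpp4 were then added, and a fibroblast was a member when this sum was at least 3 and larger than each of 4 other marker sums (Tcf21, Asb4 and Rspo3; Tspan11, Pax1 and Mlana; Ngfr, Fgf10 and Gsc; Col8a1, Adamts16 and Krtdap). This gave 3430 members among 7162 fibroblasts (47.9%, exact 95% interval 46.7% to 49.1%) and among 23666 barcodes past the filter on depth and mitochondrial share. The 3732 other fibroblasts served for comparison, of which 541, 334, 311 and 111 belonged by the same rule to the 4 other marker groups, in the order given, and 2435 to no group.

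The cells came from C57BL/6J mice of 12 to 14 weeks, 4 males and 4 females, with no treatment or mutant allele named in the labels. For each mouse, vessels of 4 regions (the mesentery, the superficial neck, the saphenous or popliteal afferent vessels and those from inguinal to axillary nodes) were combined and dissociated with papain, collagenase and dispase, so no value can be tied to a region. Cells carried multiplexing oligonucleotides and were pooled within each sex before capture, and the deposited table joins both pools: barcodes end in a suffix from 1 to 8, but no label ties a suffix to a mouse or a sex. The table is therefore 1 sample, no difference was tested, and each suffix is given only as an unlabelled sample.

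Fibroblasts that carry Pi16 and Dpp4 are found in the adventitia of vessels and in fascia of many mouse tissues, and are often described as a shared stromal state from which more specialised fibroblasts can arise. In adipose tissue, Dpp4-positive cells are known as early progenitors, set against committed preadipocytes that carry Icam1 and Pparg. Pi16 encodes a secreted protein of the CAP family (chromosome 17, 29317680 to 29330593, plus strand), and Dpp4 encodes the surface peptidase CD26 (chromosome 2, 62330073 to 62412231, minus strand). Positions are from GENCODE on mouse build GRCm38 (mm10).

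Levels are UMIs summed over the cells of a set and scaled to CPM, the counts per 1000000 UMIs of that set. The sets held 45151551 UMIs in Pi16/Dpp4 fibroblasts and 39751935 UMIs in other fibroblasts, with medians of 12550.5 and 10043.5 UMIs per cell. Median genes per cell were 3518 in Pi16/Dpp4 fibroblasts and 3049 in other fibroblasts, and 1433.5 and 1409 once each cell was thinned to 3000 UMIs. Mitochondrial shares had medians of 0.871% and 1.00%. A rule on raw UMIs takes deeper cells more easily: in 4 equal depth bins of fibroblasts with median UMIs of 6296.5, 10073, 12737 and 17073, the share of members was 24.0%, 46.7%, 59.3% and 61.5%. No member shared its barcode sequence with a member of another suffix, and 5 sequences were shared among all fibroblasts. The members per suffix numbered 284 to 588, with a median of 430.5, and their share of fibroblasts ran from 36.6% to 59.0% with a median of 51.5%.

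**Figure D1:**
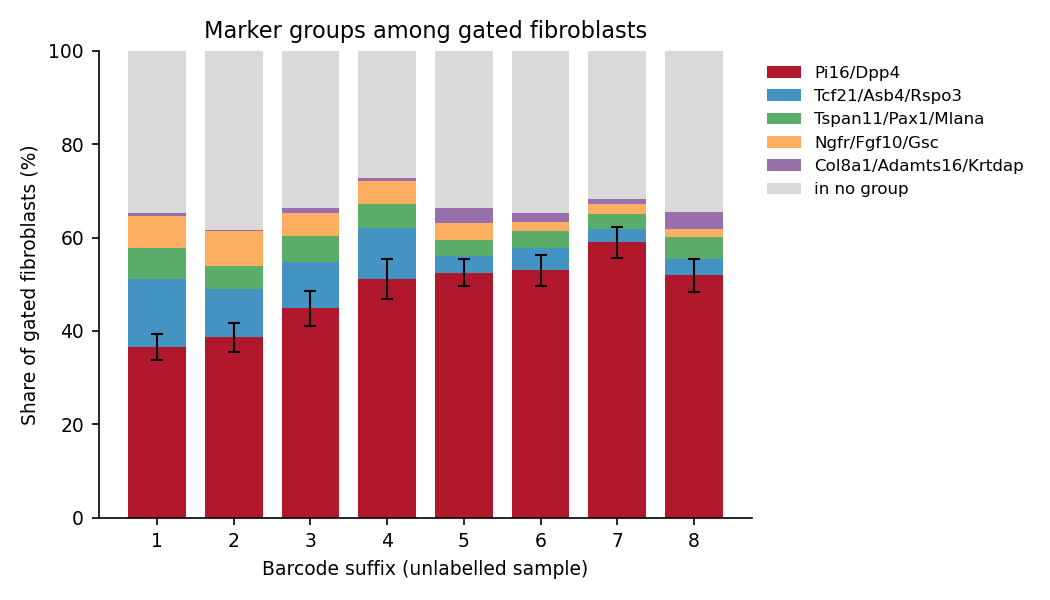
Share of gated fibroblasts (%, vertical axis) in each marker group for each of the 8 barcode suffixes (horizontal axis), with exact binomial 95% bars on the Pi16/Dpp4 share. The Pi16/Dpp4 share lies between 36.6% (suffix 1) and 59.0% (suffix 7) and is the largest named group in all 8 suffixes.

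The values that chose the members are a description. All levels below compare sets that the rule cut from the same cells, and where 3 values are given across suffixes they are the lowest, the median and the highest of the 8. Members held a median of 22 UMIs of Pi16 and Dpp4 together (quartiles 10 and 40, highest 260), of which 2748 cells (80.1%) had both genes, 639 (18.6%) had Pi16 alone and 43 had Dpp4 alone. Pi16 stood at 1991 CPM in Pi16/Dpp4 fibroblasts and 50.8 CPM in other fibroblasts, and Dpp4 at 244 CPM in Pi16/Dpp4 fibroblasts and 16.3 CPM in other fibroblasts. The gate genes were close in the sets, at 351 against 429 CPM for Pdgfra and 14239 against 14524 CPM for Dcn. At the edge of the rule, 152 members had exactly 3 UMIs, and 159 fibroblasts just outside had 2 UMIs and no larger other sum. Their median depths were 11495 UMIs just inside and 10372 UMIs just outside. Anxa3 was at 384 CPM just inside and 270 CPM just outside, Sema3c at 172 and 93.5 CPM, and Cd55 at 111 and 103 CPM. Apoe was at 547 CPM just inside and 667 CPM just outside, Cxcl14 at 243 and 285 CPM, and Fabp4 at 32.7 and 19.1 CPM. Adamts16 and Krtdap, which mark another group in the rule, were higher in members, at 41.3 against 4.20 CPM and 28.1 against 2.64 CPM.

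Genes known from Pi16-positive adventitial fibroblasts, and not used in the rule, went with the label. All 26 genes of that list were measured, all 26 had a higher level in Pi16/Dpp4 fibroblasts, and 19 were at least 2-fold higher, with a median log2 ratio of 1.51. The list summed to 17461, 18579 and 20668 CPM across suffixes in Pi16/Dpp4 fibroblasts, against 8540, 9069 and 10301 CPM in other fibroblasts, so the suffixes did not overlap. They include the surface proteins Cd55 (479 against 81.3 CPM) and Cd34 (844 against 424 CPM), the Ly6 antigens Ly6a (1463 against 929.6 CPM) and Ly6c1 (845 against 379.8 CPM), and the scavenging chemokine receptor Ackr3 (485 against 135 CPM). Bmp7, a ligand of the BMP family, stood at 26.9 against 1.66 CPM, and Wnt2, a Wnt ligand, at 54.5 against 12.2 CPM. The smallest ratio was that of the hyaluronan synthase Has1, at 1102 against 964 CPM, which was higher in 7 of 8 suffixes, while the other 25 genes were higher in all 8. The genes of committed preadipocytes and parenchymal fibroblasts ran the other way: 23 of 24 were measured, all 23 had a lower level in Pi16/Dpp4 fibroblasts and 19 were at least 2-fold lower (median log2 ratio -1.59). Dlk1, a preadipocyte factor, was below 20 CPM in both sets, at 0.620 against 1.76 CPM. That list summed to 2690, 2887 and 3627 CPM in Pi16/Dpp4 fibroblasts and to 7567, 8112 and 9189 CPM in other fibroblasts across suffixes. Both lists were written with earlier results of these data in view.

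The rest of the adventitial list held matrix and secreted proteins as well as regulators. Pcolce2, which enhances procollagen cleavage, stood at 496, 620.1 and 729 CPM across suffixes in Pi16/Dpp4 fibroblasts, against 297, 379 and 462 CPM in other fibroblasts. Igfbp6, a binding protein for insulin-like growth factor 2, stood at 2130.2, 3096 and 3478 CPM across suffixes in Pi16/Dpp4 fibroblasts, against 1038, 1456 and 1889 CPM in other fibroblasts, and Emilin2, an elastin-associated glycoprotein, at 272 against 112 CPM. Col14a1, a collagen that sits on fibrils, was at 678 against 282 CPM, and Clec3b, tetranectin, at 2851 against 2109.8 CPM. The ubiquitin hydrolase gene Uchl1 was at 46.3 against 11.1 CPM, the neural adhesion gene Opcml at 735 against 242 CPM and Cmah, which makes a mouse sialic acid, at 206 against 46.9 CPM. The transcription factor genes Creb5 (1011 against 381 CPM) and Ebf2 (558 against 344 CPM) and the surface genes Cd248 (574 against 231 CPM) and Heg1 (822 against 412 CPM) were higher in all 8 suffixes.

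On the side of committed preadipocytes and parenchymal fibroblasts, the regulators of fat cell differentiation were lower. Pparg stood at 4.23, 7.41 and 18.7 CPM across suffixes in Pi16/Dpp4 fibroblasts, against 13.1, 25.2 and 38.4 CPM in other fibroblasts, with a small overlap of the suffixes, and Cebpa at 7.45, 10.6 and 19.3 CPM across suffixes in Pi16/Dpp4 fibroblasts, against 25.8, 31.3 and 51.7 CPM in other fibroblasts, without overlap. Lpl, lipoprotein lipase, was at 378 against 897 CPM, and Cd36, the fatty acid translocase, at 7.88 against 20.9 CPM. Icam1, the adhesion molecule used to sort committed preadipocytes, was at 382 against 754 CPM, short of 2-fold, and Vcam1 at 58.1 against 131 CPM. The basement membrane collagens Col4a1 (231 against 617 CPM) and Col4a2 (135 against 413 CPM), the enkephalin gene Penk (123 against 279.6 CPM), the BMP family gene Gdf10 (93.6 against 282 CPM) and the growth factor gene Clec11a (28.1 against 102 CPM) were all lower without overlap.

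Of 6526 genes with at least 20 CPM in either set, 243 (3.72%) were at least 2-fold higher in Pi16/Dpp4 fibroblasts and 258 (3.95%) at least 2-fold lower. Most genes were alike, with 84.3% within 1.5-fold and a median log2 ratio of -0.02. Past 4-fold, 61 genes were higher and 51 lower. The order held in all 8 suffixes for 236 of the 243 and 235 of the 258 genes. These shares are the background for the 19 of 26 adventitial genes above 2-fold and the 19 of 23 preadipocyte and parenchymal genes below it. They are also the background for the 2-fold counts of every list below. For 424 genes (6.5%) every suffix of Pi16/Dpp4 fibroblasts lay above every suffix of other fibroblasts, and for 304 genes (4.66%) below. Intervals given with ratios are exact 95% intervals that cover counting error only, not differences between mice.

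**Figure D2:**
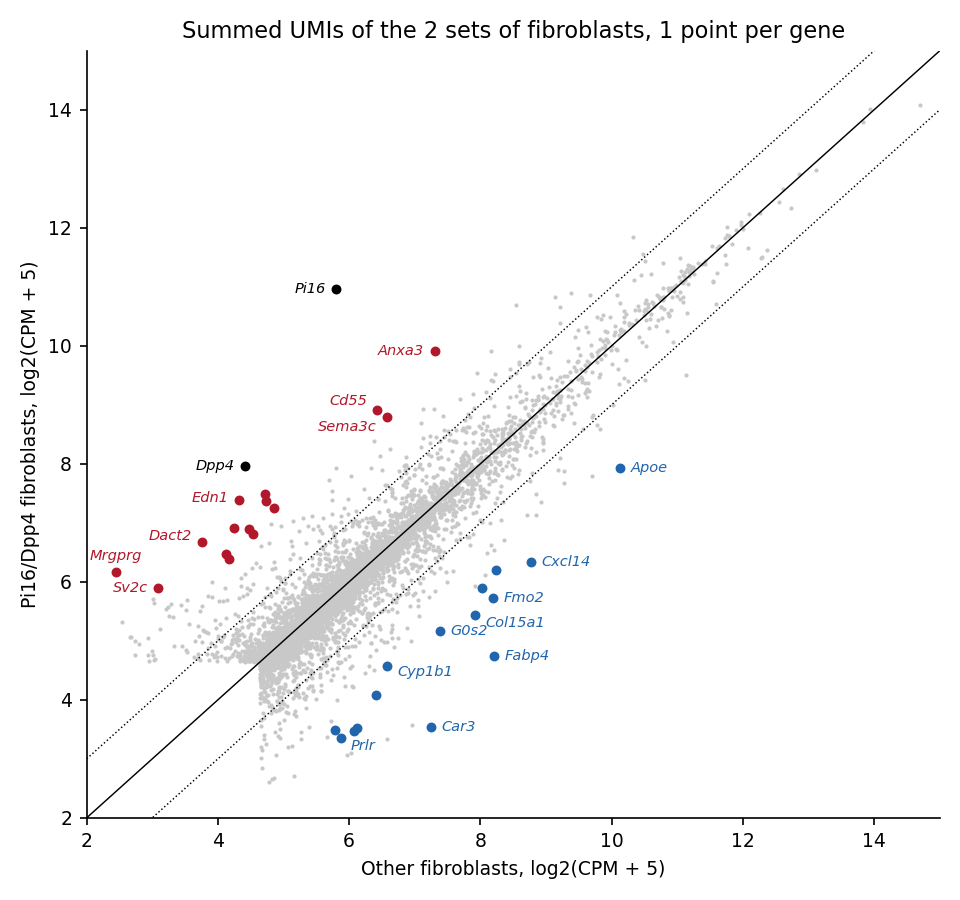
Level of each measured gene in Pi16/Dpp4 fibroblasts (vertical axis, log2 of CPM + 5) against other fibroblasts (horizontal axis, same scale), with the line of equality and dotted lines at 2-fold. Red points are the 15 leading higher genes and blue points the 15 leading lower genes, black points are genes of the rule, and most of the 6526 genes lie within the dotted lines.

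Among the leading higher genes, Edn1, Sema3c, Sema3e and Il18 encode secreted signals. Edn1 encodes the precursor of endothelin-1, a peptide that contracts vessel muscle (chromosome 13, 42301476 to 42307990, plus strand). Edn1 stood at 61.0, 137 and 357 CPM across suffixes in Pi16/Dpp4 fibroblasts, against 8.43, 14.4 and 25.4 CPM in other fibroblasts. The suffixes did not overlap, and over all cells Edn1 was 10.9-fold (95% interval 9.98 to 11.8) higher. In cells thinned to 3000 UMIs, 23.6% of Pi16/Dpp4 fibroblasts and 2.85% of other fibroblasts held an Edn1 UMI, with 1.01% in macrophages, which show the background of free RNA. Sema3c, a secreted semaphorin that guides axons and vessels, stood at 331, 441 and 639 CPM across suffixes in Pi16/Dpp4 fibroblasts, against 72.3, 91.8 and 117 CPM in other fibroblasts. The sets did not overlap, although the highest member suffix lay apart from the next at 514 CPM. Over all cells Sema3c was 4.84-fold (95% interval 4.67 to 5.02) higher. Sema3e, the semaphorin that binds plexin D1, was at 78.3 CPM in Pi16/Dpp4 fibroblasts and 12.9 CPM in other fibroblasts, 6.05-fold (95% interval 5.52 to 6.65) higher, and the cytokine gene Il18 at 114 CPM in Pi16/Dpp4 fibroblasts and 17.2 CPM in other fibroblasts, 6.64-fold (95% interval 6.13 to 7.20) higher. Il18 is also made by macrophages, where 6.83% of thinned cells held a UMI, against 27.1% of Pi16/Dpp4 fibroblasts and 4.25% of other fibroblasts.

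Surface genes among the leaders were Cd55 and Mrgprg. Cd55 encodes decay-accelerating factor, which restrains complement on the cell surface (chromosome 1, 130439027 to 130462744, minus strand). Cd55 stood at 319, 431 and 729 CPM across suffixes in Pi16/Dpp4 fibroblasts, against 57.3, 87.6 and 112 CPM in other fibroblasts. Every suffix of Pi16/Dpp4 fibroblasts was above every suffix of other fibroblasts, and the ratio was 5.89-fold (95% interval 5.68 to 6.12). Cd55 UMIs were found in 52.7% of thinned Pi16/Dpp4 fibroblasts, 14.4% of other fibroblasts and 5.02% of macrophages. Mrgprg encodes a Mas-related G protein-coupled receptor, a family best known from sensory neurons and mast cells (chromosome 7, 143763710 to 143766993, minus strand). It stood at 8.05, 68.7 and 135 CPM across suffixes in Pi16/Dpp4 fibroblasts, against 0.177, 0.470 and 0.513 CPM in other fibroblasts. Few cells carried it: 11.5% of Pi16/Dpp4 fibroblasts held a UMI, against 0.456% of other fibroblasts and 0.372% of macrophages. Other fibroblasts had 17 Mrgprg UMIs in all, and their share was close to that in macrophages, so no fold is given for Mrgprg. The members' level was uneven over suffixes, at 132, 123, 135 and 95.4 CPM in suffixes 1 to 4 and at 20.6, 18.6, 42.1 and 8.05 CPM in suffixes 5 to 8.

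The remaining leading higher genes encode intracellular or vesicle proteins. Anxa3, an annexin that binds phospholipid with calcium (chromosome 5, 96793339 to 96845966, plus strand), stood at 856, 928 and 1089 CPM across suffixes in Pi16/Dpp4 fibroblasts, against 93.7, 162 and 229 CPM in other fibroblasts. The members' suffixes lay close together and all above those of other fibroblasts, and Anxa3 was 6.27-fold (95% interval 6.10 to 6.44) higher. Dact2, a regulator of Wnt and TGF-beta signalling that binds Dishevelled, was at 97.3 CPM in Pi16/Dpp4 fibroblasts and 8.53 CPM in other fibroblasts (11.4-fold). Efhd1, a calcium-binding protein of mitochondria, was at 175 CPM in Pi16/Dpp4 fibroblasts and 21.4 CPM in other fibroblasts (8.18-fold). Limch1, which activates non-muscle myosin, was at 160.4 CPM in Pi16/Dpp4 fibroblasts and 21.5 CPM in other fibroblasts (7.47-fold), and Stmn4, a tubulin-binding stathmin, at 115 CPM in Pi16/Dpp4 fibroblasts and 13.9 CPM in other fibroblasts (8.24-fold). The same direction in all 8 suffixes was seen for Sv2c, a synaptic vesicle glycoprotein gene (54.6 against 3.50 CPM), Car8, a carbonic anhydrase relative without catalytic activity (148 against 23.8 CPM), Arhgef28, a guanine nucleotide exchange factor gene (84.1 against 12.4 CPM), and Daglb, a lipase that makes the endocannabinoid 2-arachidonoylglycerol (107 against 18.2 CPM). In all 15 leading higher genes the suffixes of the sets did not overlap.

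**Figure D3:**
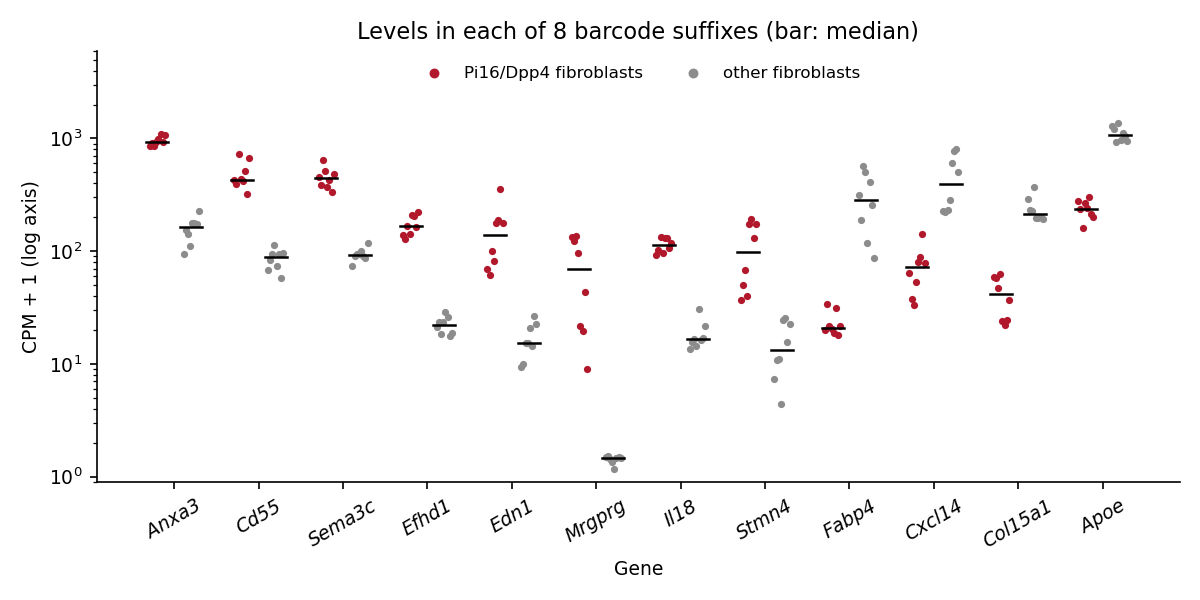
CPM + 1 (log axis) of 8 leading higher and 4 leading lower genes in each of the 8 barcode suffixes, with Pi16/Dpp4 fibroblasts in red left of other fibroblasts in grey, and bars at the median. The sets do not overlap for these 12 genes, and Mrgprg spreads from 8.05 to 135 CPM among the Pi16/Dpp4 suffixes.

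The leading lower genes were of several kinds, and Fabp4, Apoe and G0s2 among them are known from lipid handling. Fabp4, the fatty acid carrier of adipocytes and capillary endothelium, stood at 17.1, 19.9 and 33.0 CPM across suffixes in Pi16/Dpp4 fibroblasts, against 85.2, 284 and 566 CPM in other fibroblasts. The suffixes did not overlap, and Fabp4 was 13.3-fold (95% interval 12.5 to 14.3) lower in Pi16/Dpp4 fibroblasts. After thinning, a Fabp4 UMI was found in 5.22% of Pi16/Dpp4 fibroblasts, 10.7% of other fibroblasts and 8.31% of macrophages. The share in other fibroblasts was thus near that in macrophages, and the part of free RNA in the Fabp4 ratio was not tested. Apoe, the lipid transport protein, stood at 161, 238 and 302 CPM across suffixes in Pi16/Dpp4 fibroblasts, against 931, 1081 and 1366 CPM in other fibroblasts. Apoe was 4.69-fold (95% interval 4.59 to 4.79) lower, again without overlap. G0s2, an inhibitor of fat breakdown, was at 31.0 against 161 CPM, and Car3, a carbonic anhydrase abundant in fat and muscle, at 6.58 against 147 CPM. Cxcl14, a chemokine gene, stood at 32.6, 70.7 and 142 CPM across suffixes in Pi16/Dpp4 fibroblasts, against 222, 393 and 802 CPM in other fibroblasts, 5.69-fold (95% interval 5.49 to 5.91) lower, and Col15a1, a collagen of the basement membrane zone, at 21.0, 40.9 and 61.5 CPM across suffixes in Pi16/Dpp4 fibroblasts, against 194, 215 and 368 CPM in other fibroblasts, 6.15-fold (95% interval 5.84 to 6.48) lower. The flavin mono-oxygenase gene Fmo2 was at 47.7 against 288 CPM, although against the Ngfr, Fgf10 and Gsc group alone it was higher, at 47.7 CPM in Pi16/Dpp4 fibroblasts and 16.6 CPM in that group. Also lower were the metalloreductase gene Steap4 (54.3 against 255 CPM), the copper ferroxidase gene Cp, ceruloplasmin (68.4 against 297 CPM), and the cytochrome P450 gene Cyp1b1 (18.9 against 90.5 CPM). Rgs16, a brake on G protein signalling, was at 11.9 against 80.1 CPM. For Agt, the angiotensin precursor (6.49 against 64.4 CPM), Hp, haptoglobin (6.05 against 62.4 CPM), Prlr, the prolactin receptor (5.20 against 53.5 CPM), and Ifitm1, an interferon-induced membrane protein (6.25 against 50.4 CPM), the order held in all 8 suffixes but the ranges over suffixes overlapped.

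Markers of adipocytes were lower in Pi16/Dpp4 fibroblasts, and those of epithelium were uneven over suffixes. The 6 adipocyte genes summed to 2.29, 2.80 and 4.37 CPM across suffixes in Pi16/Dpp4 fibroblasts and to 7.53, 15.6 and 86.1 CPM in other fibroblasts, with Adipoq at 0.554 against 8.13 CPM. The 6 epithelial genes summed to 0.527, 7.08 and 39.3 CPM in Pi16/Dpp4 fibroblasts and to 0.244, 12.6 and 894 CPM in other fibroblasts, with the highest value in suffix 3, where Epcam was at 1.22 against 200.3 CPM and Krt8 at 5.51 against 319 CPM. When every fibroblast with a UMI of Epcam, Krt8, Krt18, Krt19, Adipoq, Plin1, Cidec or Hbb-bs was left out, a choice made after seeing the data, the log2 ratio of Fabp4 was -2.48 in place of -3.74 and that of Prlr -1.13 in place of -3.36. In fibroblasts of 5000 to 20000 UMIs, Car3 had a log2 ratio of -1.94 in place of -4.48. The Cfd gene of adipsin, an adipocyte product, reached 814 CPM in other fibroblasts of suffix 7 against 4.58 CPM in members of that suffix, and at most 19.1 CPM in the other suffixes.

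Levels of the leading genes were graded with the Pi16 and Dpp4 sum, given as a description only. The rule cut the sets on this same sum, and the genes were picked by their ratio across that cut. A gradient was thus partly set in advance. Fibroblasts of 5000 to 20000 UMIs were taken in 5 classes by that sum (0, 1 to 2, 3 to 5, 6 to 10, and 11 or more UMIs, with 1963, 996, 443, 458 and 2342 cells). Across these classes Anxa3 stood at 96.5, 191, 407, 649 and 1126 CPM. Cd55 stood at 49.0, 77.9, 176, 359 and 556 CPM, so it was higher at each class. Edn1 was at 8.09, 15.2, 80.3, 133 and 189 CPM. Mrgprg was concentrated in the top class, at 0.392, 0.699, 4.11, 13.9 and 82.7 CPM. Apoe ran the other way, at 1326, 939, 547, 252 and 193 CPM, and so did Cxcl14, at 535, 383, 193, 103 and 38.8 CPM. Median depth also differed between the classes, from 10042 UMIs at a sum of 0 to 12383 UMIs in the top class, and its part in these gradients was not tested.

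Matrix genes differed by kind. The elastic fibre and microfibril genes summed to 6243, 6796 and 8194 CPM across suffixes in Pi16/Dpp4 fibroblasts. In other fibroblasts they summed to 3617, 3792 and 4441 CPM, without overlap. The median log2 ratio of this list was 0.29, and 0.02 against the 4 other marker groups. Of its 19 genes 17 were measured, 3 were at least 2-fold higher and none 2-fold lower. The 3 were Fbn1, the fibrillin of microfibrils (1908 CPM in Pi16/Dpp4 fibroblasts and 661 CPM in other fibroblasts), Mfap5, a microfibril-associated glycoprotein (1609.8 CPM in Pi16/Dpp4 fibroblasts and 586 CPM in other fibroblasts), and Efemp1, fibulin-3 (676 CPM in Pi16/Dpp4 fibroblasts and 288 CPM in other fibroblasts). Their suffixes did not overlap, as for the crosslinking enzyme gene Loxl1 (386 against 208 CPM). Elastin itself was close, with Eln at 286 against 243 CPM. The genes of the collagen chain list were near equality, with a median log2 ratio of -0.04. Of its 23 genes 16 were measured, 1 was at least 2-fold higher and none lower. That list leaves out Col4a1, Col4a2 and Col15a1, which were lower, and Col14a1, which was higher, all counted in other lists above. Col1a1 stood at 3389 against 3640.4 CPM and Col3a1 at 5571 against 5988 CPM. Within the list the exception was Col6a5, at 34.1 against 11.4 CPM but higher in only 4 of 8 suffixes. Its values by suffix are given with the other differences between suffixes. Of the proteoglycan and matricellular genes, 28 of 29 were measured, with 6 higher and 6 lower, beside 3.72% and 3.95% of all genes measured. Fibronectin, Fn1, was at 3652 CPM in Pi16/Dpp4 fibroblasts and 1274 CPM in other fibroblasts, thrombospondin-2, Thbs2, at 127 against 63.0 CPM, periostin, Postn, at 770.0 against 345 CPM, asporin, Aspn, at 446 against 167 CPM, the adhesive protein gene Ccn3 at 70.0 against 17.9 CPM and the lubricin gene Prg4 at 46.5 against 12.6 CPM. Lower were biglycan, Bgn (397 against 869 CPM), tenascin-C, Tnc (13.8 against 38.3 CPM), and Fmod, fibromodulin (33.5 against 69.1 CPM), which was lower in 6 of 8 suffixes. Thbs1, thrombospondin-1, was at 159 against 479 CPM, Thbs4 at 6.62 against 36.9 CPM, and Sparcl1, an antiadhesive relative of Sparc, at 64.3 against 263 CPM.

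Matrix turnover showed the same mixture. Of the proteases and inhibitors, 27 of 30 were measured, 2 were 2-fold higher and 3 lower, beside 3.72% and 3.95% of all genes. The aggrecanase gene Adamts5 was at 729 CPM in Pi16/Dpp4 fibroblasts and 294 CPM in other fibroblasts, and the related Adamts4 at 85.3 CPM in Pi16/Dpp4 fibroblasts and 268 CPM in other fibroblasts, so these related enzymes ran in opposite directions. The other higher gene was Mmp27 (22.3 against 9.96 CPM). Mmp3, stromelysin-1, was at 198 against 617 CPM, and Adamts9 at 33.0 against 71.6 CPM. Among hyaluronan genes, 5 of 13 were measured and 2 were higher: Ugdh, which makes the UDP-glucuronate that hyaluronan is built from, stood at 1187, 1680.0 and 2496 CPM across suffixes in Pi16/Dpp4 fibroblasts, against 433, 524 and 921 CPM in other fibroblasts (3.24-fold), and the synthase gene Has2 at 147, 195 and 224 CPM across suffixes in Pi16/Dpp4 fibroblasts, against 69.6, 85.2 and 114 CPM in other fibroblasts (2.19-fold). Neither overlapped between sets. Has2 was short of 2-fold in suffixes 1 to 4 and against the 4 other marker groups, and Adamts5 in suffixes 1 to 4. Tnfaip6, whose product crosslinks hyaluronan, was near equality at 4025 against 4094 CPM.

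Signalling genes of the Wnt and BMP families included ligands with large ratios at low levels. Of 28 Wnt genes 14 were measured, 3 were higher and 2 lower (median log2 ratio 0.39). Over all genes measured the shares were 3.72% and 3.95%. Wnt10b, a ligand known to hold back fat cell differentiation, was at 23.1, 28.7 and 35.8 CPM across suffixes in Pi16/Dpp4 fibroblasts, against 0.859, 1.38 and 2.31 CPM in other fibroblasts, 20.3-fold (95% interval 15.6 to 27.1) higher with no overlap. Lgr5, a receptor for R-spondins, was at 25.1 against 5.11 CPM, and Dact1 at 124 against 53.6 CPM. The lower genes were the secreted modulators Dkk3 (7.60 against 27.2 CPM) and Sfrp1 (54.2 against 114 CPM), and Dkk1 had no UMI in Pi16/Dpp4 fibroblasts. Of 29 TGF-beta and BMP genes 20 were measured, 3 higher and 3 lower (median log2 ratio 0.04). The ligand genes Bmp6 (23.8 against 6.39 CPM) and Bmp2 (78.7 against 29.2 CPM) and the receptor gene Tgfbr2 (454 against 220.0 CPM) were higher. The lower genes included the BMP antagonist Chrdl1 (45.6 against 95.8 CPM) and Gdf15, a stress-induced ligand of the TGF-beta superfamily (11.4 against 30.2 CPM).

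Genes that act on vessels were split evenly, with 26 of 34 measured, 5 higher and 5 lower, beside 3.72% and 3.95% of all genes. Beside Sema3e, the higher genes were Ntn4, Fgf2, Sema3b (54.7 against 21.9 CPM) and Sema3d (52.0 against 24.7 CPM). Ntn4, a netrin that binds laminin, stood at 54.2, 109.5 and 197 CPM across suffixes in Pi16/Dpp4 fibroblasts, against 18.5, 22.4 and 44.1 CPM in other fibroblasts. Fgf2, a growth factor for fibroblasts and endothelium, stood at 121, 138 and 160.4 CPM across suffixes in Pi16/Dpp4 fibroblasts, against 35.2, 47.5 and 61.6 CPM in other fibroblasts. Neither overlapped between sets. The lower genes were Ccbe1, needed to activate the lymphatic growth factor VEGF-C (8.86 against 27.9 CPM), Vegfc itself (14.9 against 30.3 CPM), Hgf (10.8 against 24.8 CPM), the semaphorin and VEGF coreceptor Nrp1 (76.6 against 158 CPM) and the guidance ligand Slit2 (48.1 against 101 CPM). Vegfd, the other lymphatic growth factor, was at 95.4 against 54.9 CPM, short of 2-fold.

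Prostanoid genes included the enzymes of the first steps of synthesis. Of 20 genes 9 were measured, 3 higher and 1 lower, beside 3.72% and 3.95% of all genes. Ptgs2, cyclooxygenase-2, stood at 249, 505 and 921 CPM across suffixes in Pi16/Dpp4 fibroblasts, against 97.5, 183 and 325 CPM in other fibroblasts (2.69-fold), with some overlap of the suffixes. Ptgs1, cyclooxygenase-1, was at 31.1 against 8.80 CPM, and the phospholipase gene Pla2g4a, which frees arachidonic acid, at 54.4 against 25.3 CPM. The prostaglandin E2 receptor gene Ptger4 was lower, at 4.57, 9.77 and 15.4 CPM across suffixes in Pi16/Dpp4 fibroblasts, against 18.8, 33.3 and 50.5 CPM in other fibroblasts, without overlap. Of 15 retinoid genes 11 were measured, none 2-fold higher and 4 lower, among them the retinal dehydrogenase gene Aldh1a2 (9.17 against 25.4 CPM), the alcohol dehydrogenase gene Adh1 (18.2 against 51.4 CPM) and the retinoic acid degrading Cyp26b1 (16.5 against 49.1 CPM).

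Chemokine and cytokine genes were mixed. Of the 29 matched, 22 were measured, 2 were 2-fold higher and 5 were 2-fold lower (median log2 ratio -0.31). The shares over all genes were 3.72% and 3.95%. Il13ra1, a receptor chain for IL-13, was at 70.2 against 24.2 CPM, and the alarmin gene Il33 at 89.5 against 43.6 CPM. Cxcl12, the ligand of CXCR4, stood at 73.4, 122 and 245 CPM across suffixes in Pi16/Dpp4 fibroblasts, against 415, 455 and 491 CPM in other fibroblasts, 3.39-fold (95% interval 3.30 to 3.49) lower with no overlap. Ccl11, eotaxin, was at 503 against 1032 CPM, Kitl, stem cell factor, at 71.3 against 144 CPM, Cxcl16 at 16.0 against 42.1 CPM and Cxcl9 at 12.0 against 31.3 CPM. Of 16 complement genes 11 were measured, none higher and 3 lower. The lower genes included C2 (55.9 against 238 CPM) and Cfd, which rests on suffix 7 as given above. The central component C3 was at 2718 against 1755 CPM, higher in all 8 suffixes without overlap but short of 2-fold.

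Of the 33 genes of the transcription factor list 21 were measured, none 2-fold higher and 3 lower. Over all genes the shares were 3.72% and 3.95%, so the lack of a higher gene in this list is near the share of any genes. The nearest to 2-fold in the list was Osr2, at 84.6 against 44.5 CPM. Outside the list, Creb5, given with the adventitial genes, was past 2-fold higher. Pparg and Cebpa, given with the preadipocyte genes, were lower. Klf5, which promotes fat cell differentiation, was the lowest by ratio, at 1.71, 4.59 and 7.85 CPM across suffixes in Pi16/Dpp4 fibroblasts, against 23.6, 28.9 and 54.1 CPM in other fibroblasts. Nr2f2, known as COUP-TFII, stood at 23.3, 41.4 and 60.2 CPM across suffixes in Pi16/Dpp4 fibroblasts, against 94.6, 129 and 172 CPM in other fibroblasts, and the homeobox gene Meox2 at 18.0, 21.7 and 24.7 CPM across suffixes in Pi16/Dpp4 fibroblasts, against 53.4, 77.2 and 87.3 CPM in other fibroblasts. None of these 3 overlapped between sets. Among surface proteins used to sort stromal cells, 13 of 20 were measured, with Procr, the endothelial protein C receptor, higher at 323 against 145 CPM and the peptidase gene Mme (CD10) lower at 11.5 against 25.4 CPM. Thy1 was at 62.6 against 45.0 CPM and Pdgfrb at 65.9 against 86.1 CPM. Pcna was the only one of 13 cell cycle genes at the level needed, at 42.5 against 55.2 CPM, and Mki67 was at 2.30 against 4.80 CPM.

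**Figure D4:**
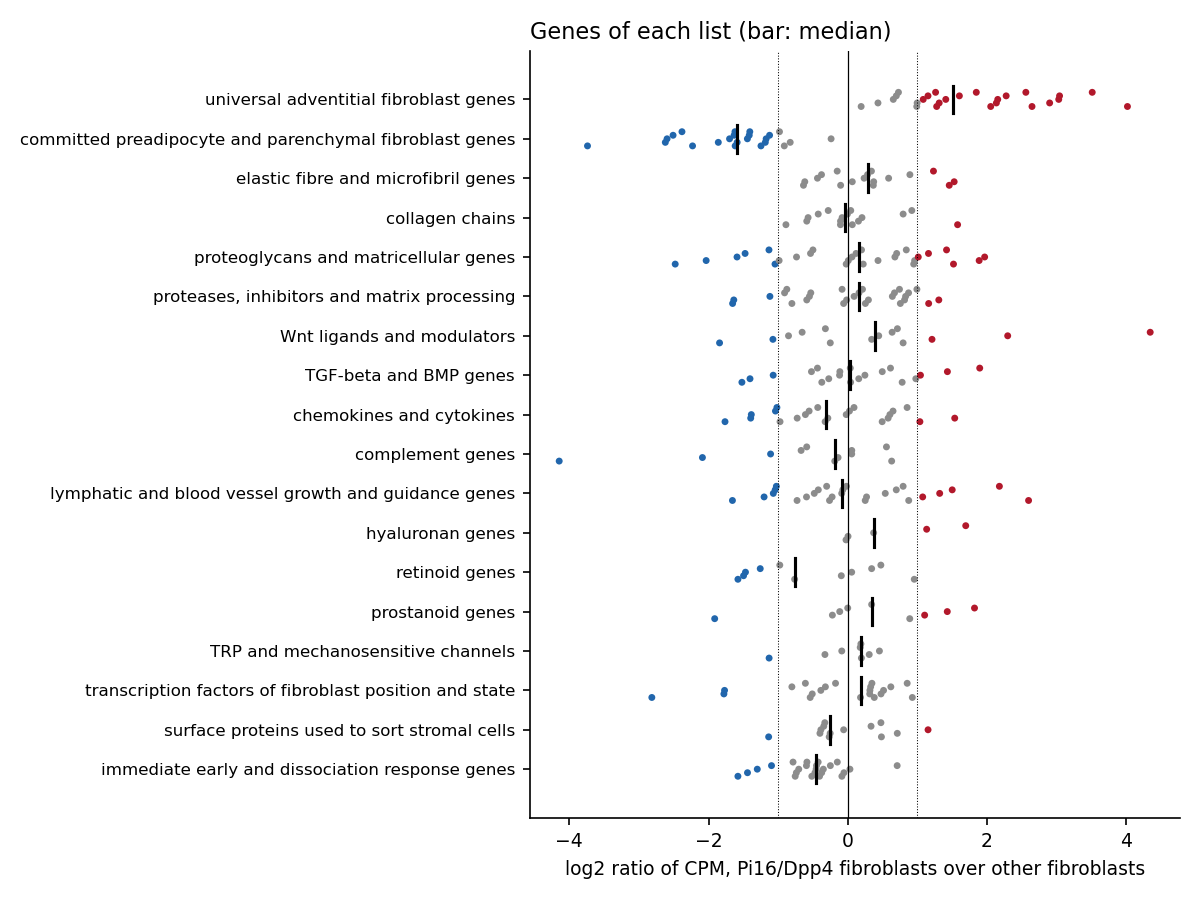
Log2 ratio of CPM, Pi16/Dpp4 fibroblasts over other fibroblasts, for each measured gene of 18 lists (1 point per gene, bar at the median, dotted lines at 2-fold, red higher and blue lower past 2-fold). The adventitial list has its median at 1.51 and the preadipocyte and parenchymal list at -1.59, and the other 16 medians lie between -0.76 and 0.39.

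Trpv4, the cation channel in the study's title (chromosome 5, 114622152 to 114658421, minus strand), was scarce in these cells. It stood at 3.72 CPM (95% interval 3.18 to 4.33) in Pi16/Dpp4 fibroblasts, 2.21 CPM (1.78 to 2.73) in other fibroblasts and 47.7 CPM in macrophages. After thinning, a Trpv4 UMI was found in 0.968% of Pi16/Dpp4 fibroblasts and 0.700% of other fibroblasts, with overlapping intervals, against 12.9% of macrophages. It was higher in members in 6 of 8 suffixes, and the suffix ranges overlapped. The mechanosensitive channel gene Piezo1 was at 17.8 against 22.3 CPM and Piezo2 at 12.3 against 26.8 CPM, and Piezo2 was highest in the Col8a1, Adamts16 and Krtdap group, at 151 CPM. Of the 16 TRP and mechanosensitive channel genes 8 were measured, none higher and Piezo2 lower, and Trpa1 had no UMI in either set.

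Genes induced by handling were lower in Pi16/Dpp4 fibroblasts as a list. All 24 immediate early and dissociation genes were measured, 22 had a lower level, 4 were at least 2-fold lower and none was 2-fold higher (median log2 ratio -0.46). Summed, they stood at 26063, 28382 and 30780 CPM in Pi16/Dpp4 fibroblasts and at 37524, 40758 and 43480 CPM in other fibroblasts across suffixes, without overlap. The early growth response genes Egr2 (43.2 against 117 CPM) and Egr3 (31.9 against 95.3 CPM), the cytokine signalling inhibitor Socs3 (676 against 1444 CPM) and the chaperone gene Dnajb1 (128 against 314 CPM) were the 4. The part of handling in the other differences was not tested.

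Markers of other cell types were low in members. The 10 macrophage genes summed to 92.7, 163 and 305 CPM across suffixes in Pi16/Dpp4 fibroblasts and 127, 278 and 377 CPM in other fibroblasts. The 10 smooth muscle and pericyte genes summed to 154, 243 and 360 CPM in Pi16/Dpp4 fibroblasts and 326, 405 and 971 CPM in other fibroblasts. A cluster of 50 members held the smooth muscle genes at 8974 CPM, and the median log2 ratio of the list was -0.95 with all cells and -1.94 with called doublets left out. A C1qa UMI was found in 6.74% of thinned Pi16/Dpp4 fibroblasts and 7.08% of other fibroblasts, against 99.0% of macrophages. The 9 endothelial genes summed to 166, 182 and 187 CPM in Pi16/Dpp4 fibroblasts and 54.6, 59.7 and 77.0 CPM in other fibroblasts. Most of that sum was Tek, the angiopoietin receptor gene, at 155, 161 and 175 CPM across suffixes in Pi16/Dpp4 fibroblasts, against 41.6, 45.6 and 61.7 CPM in other fibroblasts. Kdr, a VEGF receptor gene, was at 7.84 against 3.14 CPM, with 111 CPM in a cluster of 59 members. Lower still were Cdh5 at 0.642 against 2.54 CPM, Flt4 at 0.421 against 0.528 CPM and Prox1 at 2.41 against 2.09 CPM. The 7 mesothelial genes summed to 3.56, 12.1 and 43.9 CPM in Pi16/Dpp4 fibroblasts and 7.27, 19.3 and 341 CPM in other fibroblasts, with Msln at 0.709 against 0.956 CPM. The 6 Schwann cell genes summed to 7.49, 19.1 and 41.0 CPM in Pi16/Dpp4 fibroblasts and 20.7, 32.6 and 66.6 CPM in other fibroblasts. The 7 lymphocyte genes summed to at most 2.65 CPM in Pi16/Dpp4 fibroblasts and 6.86 CPM in other fibroblasts. The part of these genes in the other differences was not tested.

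Of the other marker groups, those most like Pi16/Dpp4 fibroblasts across 7331 genes (Pearson's r of log2(CPM + 5), across genes, which are not independent) were the Ngfr, Fgf10 and Gsc group (r = 0.928) and the Col8a1, Adamts16 and Krtdap group (r = 0.927). The Tcf21 group had r = 0.909, with 345 genes (5.17%) 2-fold higher and 424 (6.35%) lower in Pi16/Dpp4 fibroblasts, and the Tspan11 group r = 0.889, with 509 (7.7%) and 298 (4.51%). The groups differed in their suffixes: 217 of the 311 cells of the Ngfr group and 20 of the 111 cells of the Col8a1 group were from suffixes 1 to 4, against 1410 of the 3430 members. Within suffixes 1 to 4 r was 0.930 for the Ngfr group, 0.915 for the Tcf21 group and 0.884 for the Col8a1 group, and within suffixes 5 to 8 it was 0.920, 0.900 and 0.921 (a comparison added after seeing the data). The place of the Col8a1 group in this order thus differed between the suffix sets. The adventitial markers were closest in the Col8a1 group, with Anxa3 at 957 CPM in Pi16/Dpp4 fibroblasts, 462 CPM in that group and 124 CPM in the Ngfr group. Cd55 likewise stood at 479 CPM, against 242 and 88.9 CPM in those groups. The Pi16 level itself was 1991 CPM, against 237 and 28.2 CPM. Edn1 was at 162 CPM in Pi16/Dpp4 fibroblasts and between 3.07 CPM and 29.5 CPM in the 4 groups, and Mrgprg at 66.4 CPM against at most 0.286 CPM in them. The order for Pi16 is set by the rule.

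Against the 311 cells of the Ngfr group, 329 of 6569 genes (5.01%) were 2-fold higher in Pi16/Dpp4 fibroblasts and 290 (4.41%) lower. Leading higher genes beside Edn1, Mrgprg and Limch1 were the Wnt modulator Sfrp4 (523 against 28.6 CPM) and the cartilage matrix gene Cilp (116 against 4.85 CPM). Another was Angptl7, with 73.1 CPM against no UMI. Angptl7 in members ran from 7.69 to 26.8 CPM in suffixes 1 to 4 and from 75.2 to 194 CPM in suffixes 5 to 8. In all other fibroblasts of suffixes 5 to 8 it ran from 20.8 to 308 CPM. Leading lower genes were the oxysterol hydroxylase gene Cyp7b1 (5.38 against 106 CPM), the BMP regulator Bmper (30.7 against 221 CPM), the metalloprotease gene Adam12 (52.4 against 348 CPM), Col15a1, Sparcl1 and Agt. Against the 111 cells of the Col8a1 group, 261 of 6671 genes (3.91%) were 2-fold higher and 322 (4.83%) lower. Higher were the decoy receptor gene Il1r2 (186 against 2.07 CPM), the chemokine gene Cxcl13 (95.3 against 1.03 CPM), the tryptophan dioxygenase gene Tdo2 (75.9 against 1.03 CPM), the cGMP-dependent kinase gene Prkg2 (61.6 against 3.62 CPM), Procr (323 against 36.2 CPM) and Mrgprg, with no UMI in the Col8a1 group. Il1r2, Cxcl13 and Tdo2 rest on 4, 2 and 2 UMIs in that group. Lower were Thbs4 (6.62 against 459 CPM), the collagen-binding proteoglycan gene Fmod (33.5 against 681 CPM), the potassium channel gene Kcnma1 (8.79 against 134 CPM), Piezo2, Fibin and Fhl2.

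Genes whose level followed Pi16 most closely over 31 sums (fibroblast group by suffix) were Wnt10b (r = 0.949), Islr2 (r = 0.941), Sv2c (r = 0.926), Dact2 (r = 0.925) and Duoxa1 (r = 0.922). Those that followed Dpp4 were Duoxa1 (r = 0.932), Aif1l (r = 0.929), Pi16 (r = 0.917), Sv2c (r = 0.916) and Wnt10b (r = 0.909). The sums share the gate, the rule and their suffix's library, and the groups were formed with Pi16 and Dpp4, so these values are a description.

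Among the members, cells with UMIs of both genes and cells with Pi16 alone differed in the genes that set members apart from other fibroblasts. The split uses the genes of the rule, so these values are a description. Pi16 itself was at 2161 CPM with both genes and 1328 CPM with Pi16 alone, which thus lay nearer the edge of the rule. With both genes, Anxa3 stood at 1046 CPM and with Pi16 alone at 557 CPM, Cd55 at 531 and 247 CPM, and Apoe at 201 and 418 CPM. Of 3186 genes with at least 50 CPM, 24 (0.753%) were at least 2-fold higher in cells with both and 41 (1.29%) lower. Nav3, a microtubule-binding neuron navigator, was at 276 CPM with both and 70.8 CPM with Pi16 alone. Calcrl, the receptor of CGRP and adrenomedullin, was at 104 and 44.1 CPM, and Ntn4 at 135 and 49.8 CPM. Lower with both were Cxcl14 (39.8 against 253 CPM), Fmo2 (25.9 against 154 CPM), Mgp, the inhibitor of calcification (128 against 646 CPM), and F3, tissue factor (74.6 against 225 CPM). Median depth was 12723 UMIs in cells with both and 11545 UMIs in cells with Pi16 alone. The 43 cells with Dpp4 alone had Anxa3 at 509.6 CPM and Cxcl14 at 35.4 CPM.

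Clustering of the members without the genes of the rule gave 7 clusters, which are left unnamed and described by their leading genes. The genes that define a cluster are no finding. Cluster 0 held 1016 cells (29.6%), all of suffixes 5 to 8, and led with Fyb2 (84.0 CPM, against 11.6 CPM in the rest), the integrin gene Itgb7 (52.8 against 7.61 CPM), Il1r2 (418 against 103 CPM) and the protease inhibitor gene Serpine2 (453 against 116 CPM). Procr (663 CPM), Edn1 (333 CPM) and Ptgs2 (921 CPM) were highest there. Cluster 2, with 700 cells (20.4%), was almost absent from suffixes 5 to 8 (at most 0.202% of a suffix) and led with Col6a5 (127 against 6.99 CPM), Mrgprg (218 against 21.9 CPM), the steroid reductase gene Akr1c18 (115 against 11.3 CPM) and the matricellular gene Postn (2103 against 379 CPM).

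Cluster 1, with 830 cells (24.2%), was found in all 8 suffixes at 11.7% to 36.3% of the members. It led with the transcription factor genes Wt1 (339.7 against 10.3 CPM) and Nkx2-3 (83.7 against 1.80 CPM) and with Ptgs1 (102 against 9.12 CPM). Lower genes there included Myoc, myocilin (60.3 against 2149 CPM), Tdo2 (1.21 against 99.2 CPM), Il1r2 (7.93 against 242 CPM) and the limb and trunk transcription factor gene Tbx15 (6.63 against 199 CPM). Wt1 also marks mesothelium, whose genes Msln (1.21 CPM) and Lrrn4 (0.280 CPM) were near 0 in cluster 1. Cd55 was highest there, at 845 CPM, and so were Fbn1 (2983 CPM), Mfap5 (2226 CPM) and Efemp1 (1254 CPM).

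Cluster 3, with 425 cells (12.4%), lay in suffixes 5 to 8 (12.9% to 26.5%) but for 0.322% of suffix 3, and led with Angptl7 (438 against 15.7 CPM), Lcn2, lipocalin-2 (153 against 2.77 CPM), Igfbp3 (714 against 48.5 CPM) and tenomodulin, Tnmd (205 against 15.8 CPM). Cluster 4, with 350 cells (10.2%), was in all 8 suffixes at 5.86% to 15.6% and led with Cthrc1 (108 against 5.05 CPM), the inhibitor gene Timp1 (428 against 34.1 CPM), Cxcl13 (478 against 54.7 CPM) and Prg4 (211 against 29.0 CPM). Pi16 was present throughout, at 2554, 1416, 2167, 1909, 1779, 1757 and 1247 CPM in clusters 0 to 6.

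Cluster 5 was small, with 59 cells (1.72%) all in suffixes 1 to 4, and had a Pi16 level like that of other members. Some genes that set members apart were low there. The adventitial list as a whole summed to 18575 CPM in cluster 5, against 11335 to 20132 CPM in the other clusters. Cluster 5 led with Ecrg4 (674 against 32.6 CPM), Fmod (483 against 23.8 CPM), Sfrp4 (5646 against 413 CPM) and the leptin receptor gene Lepr (69.5 against 1.95 CPM). Cd55 was at 43.2 CPM, Edn1 at 9.48 CPM and Limch1 at 2.11 CPM, while Ly6a was at 2417 CPM. No cell of it was called a doublet. Cluster 6, with 50 cells (1.46%) over all 8 suffixes, led with the smooth muscle genes Myh11 (1656 against 4.59 CPM), Acta2 (4210.3 against 19.5 CPM) and Tagln (2183 against 7.84 CPM). Its median depth was 18023.5 UMIs, the highest of the clusters. Its smooth muscle list summed to 8974 CPM, against 52.8 to 169 CPM in the other clusters, and 38 of its 50 cells (76%) were called doublets, against at most 6 cells in any other cluster. With all called doublets left out, 3380 members remained, with 247 genes 2-fold higher and 259 lower than in other fibroblasts.

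**Figure D5:**
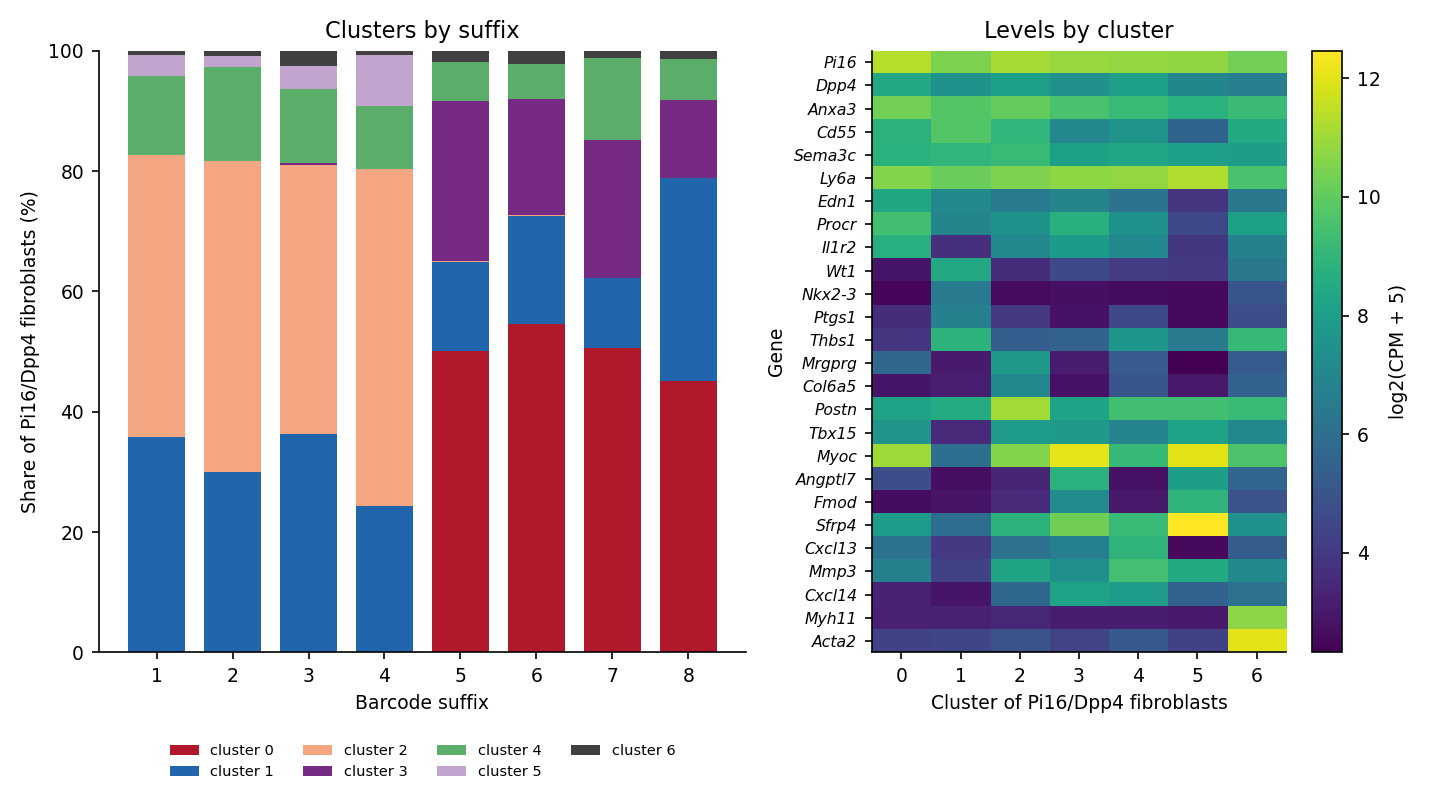
Left, share of Pi16/Dpp4 fibroblasts (%) in each cluster for each barcode suffix, and right, level of 26 genes by cluster as log2(CPM + 5) (colour). Clusters 0, 1, 3 and 4 make up most of suffixes 5 to 8, and cluster 2 takes the place of clusters 0 and 3 in suffixes 1 to 4 (44.7% to 56.0%), and Pi16 is at 1247 CPM or more in every cluster.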

How the data were processed

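The deposited table holds UMI counts, whole numbers per gene and barcode. Per the file headers the software was Cell Ranger 7.1.0. The submitters' processing notes also list build mm10 and Seurat 4.3.0.1, without their roles, and no label names the annotation. Barcodes with at least 500 UMIs, 300 genes and under 15% mitochondrial UMIs were kept (24046 barcodes, 23666 kept, 32285 genes). No label says whether the authors removed doublets. Counts were summed over cells and scaled to CPM. Genes with at least 20 CPM in either set were called measured, and a ratio of at least 2 or at most 0.5 was called past 2-fold. Intervals are exact 95% Poisson, conditional binomial or Clopper-Pearson intervals and cover counting error only. The pooled table is 1 sample, so no difference was tested, and the scripts were tested on simulated data. Dixon's gap over range served only to flag a suffix far from the others. Doublets were kept and called with Scrublet within suffixes 1 to 4 and 5 to 8 (719 of 23666 cells, 3.04%). Macrophages had at least 1 Ptprc UMI, at least 10 of C1qa, C1qb and C1qc, and none of Pdgfra or Upk3b (4844 cells, median 7512.5 UMIs). Cells with under 3000 UMIs, 20 Pi16/Dpp4 and 159 other fibroblasts, were left out of thinned values. Members were clustered with scanpy 1.11.5 and leidenalg 0.10.2 on 2000 variable genes without the rule genes (20 components, 15 neighbours, resolution 0.5). The alternative scaling used edgeR 4.0.16 in R 4.3.3, and other steps Python 3.11.15, numpy 2.4.6, scipy 1.17.1, pandas 2.3.3 and matplotlib 3.10.9. Leading genes were the 15 highest and 15 lowest by (CPM + 5)/(CPM + 5) among genes with at least 50 CPM in the higher set and 1 direction in 8 suffixes, outside the rule and outside mitochondrial, ribosomal, Xist and Y-linked genes. Up to 4 genes per list were named by the same measure, and the further list and cluster genes were named after their values were seen. Ccl19, whose symbol stands on several gene identifiers, was not matched. The members, lists and rules were chosen with earlier results of these data known. Alternatives covered the UMI minimum, cell filter, doublets, depth, suffixes, gate, scaling and level minimum, and 2 were added after seeing the data.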

Additional observations from a re-analysis of the deposited data

Results flagged for a closer look

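Among 38 values examined over the 8 suffixes, 2 had a sample far from the others, where chance gives about 1 in 20. Edn1 in Pi16/Dpp4 fibroblasts reached 357 CPM in suffix 7, apart from the next suffix at 188 CPM and the lowest at 61.0 CPM, and other fibroblasts of suffix 7 had 25.4 CPM. Edn1 was higher in Pi16/Dpp4 fibroblasts in all 8 suffixes. The share of cluster 5 among Pi16/Dpp4 fibroblasts was 8.45% in suffix 4, apart from the next suffix at 3.86%, and 0% in suffixes 5 to 8.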

How the results depend on the processing

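The share of members moved from 47.9% to 50.1% with a UMI minimum of 2, to 44.0% with a minimum of 5, to 49.95% in fibroblasts of 5000 to 20000 UMIs and to 46.3% without suffix 7. It was 41.2% of suffixes 1 to 4 (1410 members), 54.0% of suffixes 5 to 8 (2020 members) and 45.4% under a stricter lineage gate (1659 members). Genes past 2-fold numbered 228 to 288 higher and 215 to 269 lower under all alternatives but the removal of the level minimum, which gave 1260 higher and 3070 lower of 20419 genes. TMM scaling gave 288 higher and 215 lower. Of the 95 named genes past 2-fold, 82 to 95 stayed past it where a value could be had. Those short of it in suffixes 1 to 4 included Il1r2, Adamts5, Dact1, Procr, Has2, Piezo2, Fmod, Adamts9, Socs3 and Adam12, and those short of it against the 4 other groups included Efemp1, Has2, Pla2g4a, Mme, Acta2, Tagln, Cxcl16, Ccbe1, Krt19, Epcam, Krt8 and Cfd. Signs turned round for Krt19 (log2 ratio 0.56 at 5000 to 20000 UMIs, 0.42 against the 4 other groups, 0.44 under the stricter gate), Fmod (0.28 in suffixes 1 to 4), Cfd (0.14 under the stricter gate), and Col6a5 (-2.36) and Krt8 (1.21) in suffixes 5 to 8, and the cause was not tested. In those suffixes Krt8 was near 0, at most 0.591 CPM in Pi16/Dpp4 fibroblasts and 0.473 CPM in other fibroblasts. The 30 leading genes kept their direction under these alternatives. Of these 30, the ratio moved toward equality by over 1.5 times for Prlr and Fabp4, as given above. It did so for Car3 and Hp (log2 ratio -2.27, against -3.37) at 5000 to 20000 UMIs. In suffixes 5 to 8 it did so for Daglb (1.54, against 2.55) and Arhgef28 (1.81, against 2.76). Mrgprg also moved by that much there, but its ratios were set against a background level and are not given. The others were Edn1 (2.85, against 3.44) in suffixes 1 to 4 and Cxcl14 (-1.81, against -2.51) against the 4 other groups. Median log2 ratios of the adventitial list ran from 1.47 to 1.59 and those of the preadipocyte and parenchymal list from -1.70 to -1.39. Medians near 0 changed sign with the choice, as for collagens (-0.31 to 0.29), proteoglycans (-0.07 to 0.35), TGF-beta genes (-0.05 to 0.13), vessel genes (-0.10 to 0.04) and transcription factors (-0.18 to 0.27). No paired analysis was possible because no result comes from a test: the suffixes carry no labels, and the order within each is given as a description. Depth limits the rule: a fibroblast with few UMIs can hold Pi16 mRNA and still miss the minimum of 3.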

Other observations

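Pi16/Dpp4 fibroblasts of suffixes 1 to 4 and of suffixes 5 to 8 differed in a small set of genes. No label says whether these suffix sets are the sex pools, or which suffixes belong to which sex. If they are, capture and sex cannot be told apart, since cells were pooled by sex before capture. The most counted multiplexing oligonucleotides were CMO301, CMO302, CMO303 and CMO304 in suffixes 1 to 4, in that order, and the same again in suffixes 5 to 8. Over all suffixes 44 barcode sequences were shared, but 0 within suffixes 1 to 4 and 0 within suffixes 5 to 8. Of 6846 genes with at least 20 CPM in a suffix of members, 31 had every value of suffixes 1 to 4 at least 2-fold above every value of suffixes 5 to 8, and 34 the reverse (on CPM + 5), a comparison chosen after the data were seen and not tested.

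Higher in suffixes 5 to 8 was C7, a late complement component, at 779, 650.0, 700.5 and 586 CPM, against 16.0, 13.1, 7.35 and 7.08 CPM in suffixes 1 to 4. Sult1e1, the estrogen sulfotransferase gene, stood at 112, 74.9, 141 and 160.4 CPM, against 1.31, 0.437, 0.612 and 1.01 CPM. Both genes differed alike in other fibroblasts, where C7 was at 503 CPM or more in suffixes 5 to 8 and at most 25.2 CPM in suffixes 1 to 4, and Sult1e1 at 134 CPM or more and at most 1.50 CPM. Serpine2, a protease inhibitor gene, ran from 269 to 373 CPM in suffixes 5 to 8 and from 36.9 to 42.7 CPM in suffixes 1 to 4, and Procr from 430.3 to 500.5 CPM and from 136 to 155 CPM.

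Higher in suffixes 1 to 4 was Postn, periostin, at 1495, 1079, 1399 and 1516 CPM, against 281, 286, 389 and 262 CPM in suffixes 5 to 8. Col6a5 stood at 41.4, 37.4, 126 and 105 CPM, against 3.95, 3.05, 2.21 and 4.31 CPM. The interleukin-4 receptor gene Il4ra ran from 192 to 301 CPM in suffixes 1 to 4 and from 56.5 to 71.0 CPM in suffixes 5 to 8, and the GABA receptor subunit gene Gabrb2 from 36.5 to 58.2 CPM and from 2.62 to 4.35 CPM. Of the 31 genes higher in suffixes 1 to 4, 1 met the same criterion in other fibroblasts and 2 in macrophages, and of the 34 genes higher in suffixes 5 to 8, 10 met it in other fibroblasts and 0 in macrophages. Among other fibroblasts themselves the same criterion gave 4 and 17 of 7092 genes. Clusters 0, 2, 3 and 5 of the members follow the same split of suffixes, and clusters 1, 4 and 6 lie on both sides of it.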
